A study of Mus musculus with 26 samples.

Results

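The angiopoietins and the vascular endothelial growth factors (VEGFs) are ligand families that act through receptor tyrosine kinases of vessel endothelium, and 10 genes of this axis were read in the left ventricle: the ligands Angpt1, Angpt2, Vegfa, Vegfb and Vegfc, and the receptors Tek, Tie1, Kdr, Flt1 and Nrp1. They were chosen by name, by no threshold on a measured value but with earlier results of these data known, and all 10 were found among the 40413 genes of the count table and passed the filter on low counts. Libraries of polyadenylated RNA came from adult BPH/2J mice, an inbred strain with high blood pressure, and BPN/3J mice, an inbred strain with normal blood pressure, bred separately from a common founder stock. Mice of each strain received Cmpd17b, a small molecule agonist of formyl peptide receptors, at 50 mg/kg/day by intraperitoneal injection once a day for 28 days, or vehicle for the same time. The groups held 6 libraries of BPH/2J mice given Cmpd17b, 5 of BPN/3J mice given Cmpd17b, 7 of BPH/2J mice given vehicle and 7 of BPN/3J mice given vehicle, in 2 batches by the labels: 20 libraries were of batch 1 and 5 of batch 2, and the BPN/3J Cmpd17b group was all of batch 1. A strain comparison carries every inherited difference between the 2 lines and not blood pressure alone. The labels do not say outright that each library is a separate mouse, so p-values measure the spread between these libraries.

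Angiopoietin-1, the product of Angpt1, is made by cells around the vessel and by heart muscle, and activates the TIE2 receptor, encoded by Tek, on endothelial cells, which keeps vessels quiescent and tight. Angiopoietin-2, the product of Angpt2, comes mainly from endothelial cells, competes for the same receptor and is known for loosening vessels before they sprout or regress, while TIE1 has no ligand of its own among them and modulates TIE2. VEGF-A drives endothelial growth and permeability through VEGFR2, encoded by Kdr, whereas VEGFR1, encoded by Flt1, binds VEGF-A tightly with weak signalling and is the receptor of VEGF-B. Neuropilin-1, encoded by Nrp1, is a co-receptor for VEGF-A and for class 3 semaphorins, and VEGF-C is best known for lymphatic growth through VEGFR3.

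Promoter windows of 8 of the 10 genes were found in the RefSeq table of build GRCm38.p6, with Angpt1 and Angpt2 unmatched. Those of the 4 endothelial receptor tyrosine kinase genes are printed because these genes covaried among the 25 libraries, mostly through 1 of them, as described further on. Each window runs 5′ to 3′ on the gene's strand from 250 bases before to 50 bases after the start, and capitals mark GGAA on either strand (TTCC on the printed one), the core that ETS factors such as ERG and FLI1 recognise.
Tek (chr4:94739039-94739338, plus strand): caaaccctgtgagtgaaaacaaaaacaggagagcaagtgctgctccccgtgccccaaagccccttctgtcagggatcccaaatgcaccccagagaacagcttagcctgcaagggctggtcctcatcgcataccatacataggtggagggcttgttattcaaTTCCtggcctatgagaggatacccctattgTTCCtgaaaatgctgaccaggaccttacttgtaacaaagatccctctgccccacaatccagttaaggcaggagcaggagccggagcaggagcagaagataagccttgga
Tie1 (chr4:118489800-118490099, minus strand): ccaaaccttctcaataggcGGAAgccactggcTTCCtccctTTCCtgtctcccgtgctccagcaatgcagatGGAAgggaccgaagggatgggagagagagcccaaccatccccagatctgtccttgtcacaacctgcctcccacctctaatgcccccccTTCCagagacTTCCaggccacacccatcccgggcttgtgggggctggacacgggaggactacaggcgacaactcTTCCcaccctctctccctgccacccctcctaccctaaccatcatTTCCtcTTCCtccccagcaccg
Kdr (chr5:75978406-75978705, minus strand): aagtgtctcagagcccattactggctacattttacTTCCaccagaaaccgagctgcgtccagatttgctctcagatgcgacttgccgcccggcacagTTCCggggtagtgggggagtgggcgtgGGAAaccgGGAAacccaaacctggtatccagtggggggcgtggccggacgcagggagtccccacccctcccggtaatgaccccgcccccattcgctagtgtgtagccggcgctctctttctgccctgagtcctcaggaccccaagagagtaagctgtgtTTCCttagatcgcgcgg
Flt1 (chr5:147725962-147726261, minus strand): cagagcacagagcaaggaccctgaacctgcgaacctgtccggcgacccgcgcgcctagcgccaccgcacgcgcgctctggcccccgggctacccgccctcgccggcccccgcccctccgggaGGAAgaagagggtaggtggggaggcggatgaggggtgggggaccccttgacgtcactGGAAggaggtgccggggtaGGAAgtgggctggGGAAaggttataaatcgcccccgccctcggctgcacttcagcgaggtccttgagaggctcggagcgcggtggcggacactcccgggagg
The motif stood 2 times in the Tek window, 9 times in that of Tie1, 5 times in that of Kdr and 4 times in that of Flt1. In the windows not printed it stood 6 and 3 times for Vegfa, 5 times for Nrp1 and 2 times each for Vegfb and Vegfc. Of all 32851 windows in the table, 96% held it at least once, with a median of 3, so its presence was common. The count in Tie1, the highest of the axis windows, was unusual, since 1.59% of all windows held at least as many. That share was 28.6% for the count of Kdr, 46.3% for that of Flt1 and 84.6% for that of Tek. The hypoxia factor core ACGTG, searched on both strands, was in 19.6% of windows and in 1 of the 2 listed for Vegfa, and in none of the windows of the other 7 genes.

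Total counts per library ran between 25476100 and 48648200 over the 25 libraries used, and the tissue label fitted the cardiomyocyte markers, of which Myh6 lay between 13200 and 23200 CPM, the count scaled to library size. Library 7 of the BPH/2J Cmpd17b group was left out, since it held 12 CPM of Myh6 and 18400 CPM of the kidney gene Kap. Library 7 of the BPN/3J vehicle group was kept but stood apart: all 20 endothelial markers were highest there, their sum was 2088 CPM against 716 to 1024 CPM in the other 24, and of all 15543 genes tested 21.7% were highest there. Of the 10 axis genes 8 were highest in that library and Angpt1 was lowest there, so the results it bears on are given with and without it. CPM were scaled between libraries by the TMM method, and a gene was called at an adjusted p under 0.05 over all genes tested in edgeR's quasi-likelihood test, with batch as a term.

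**Figure D1:**
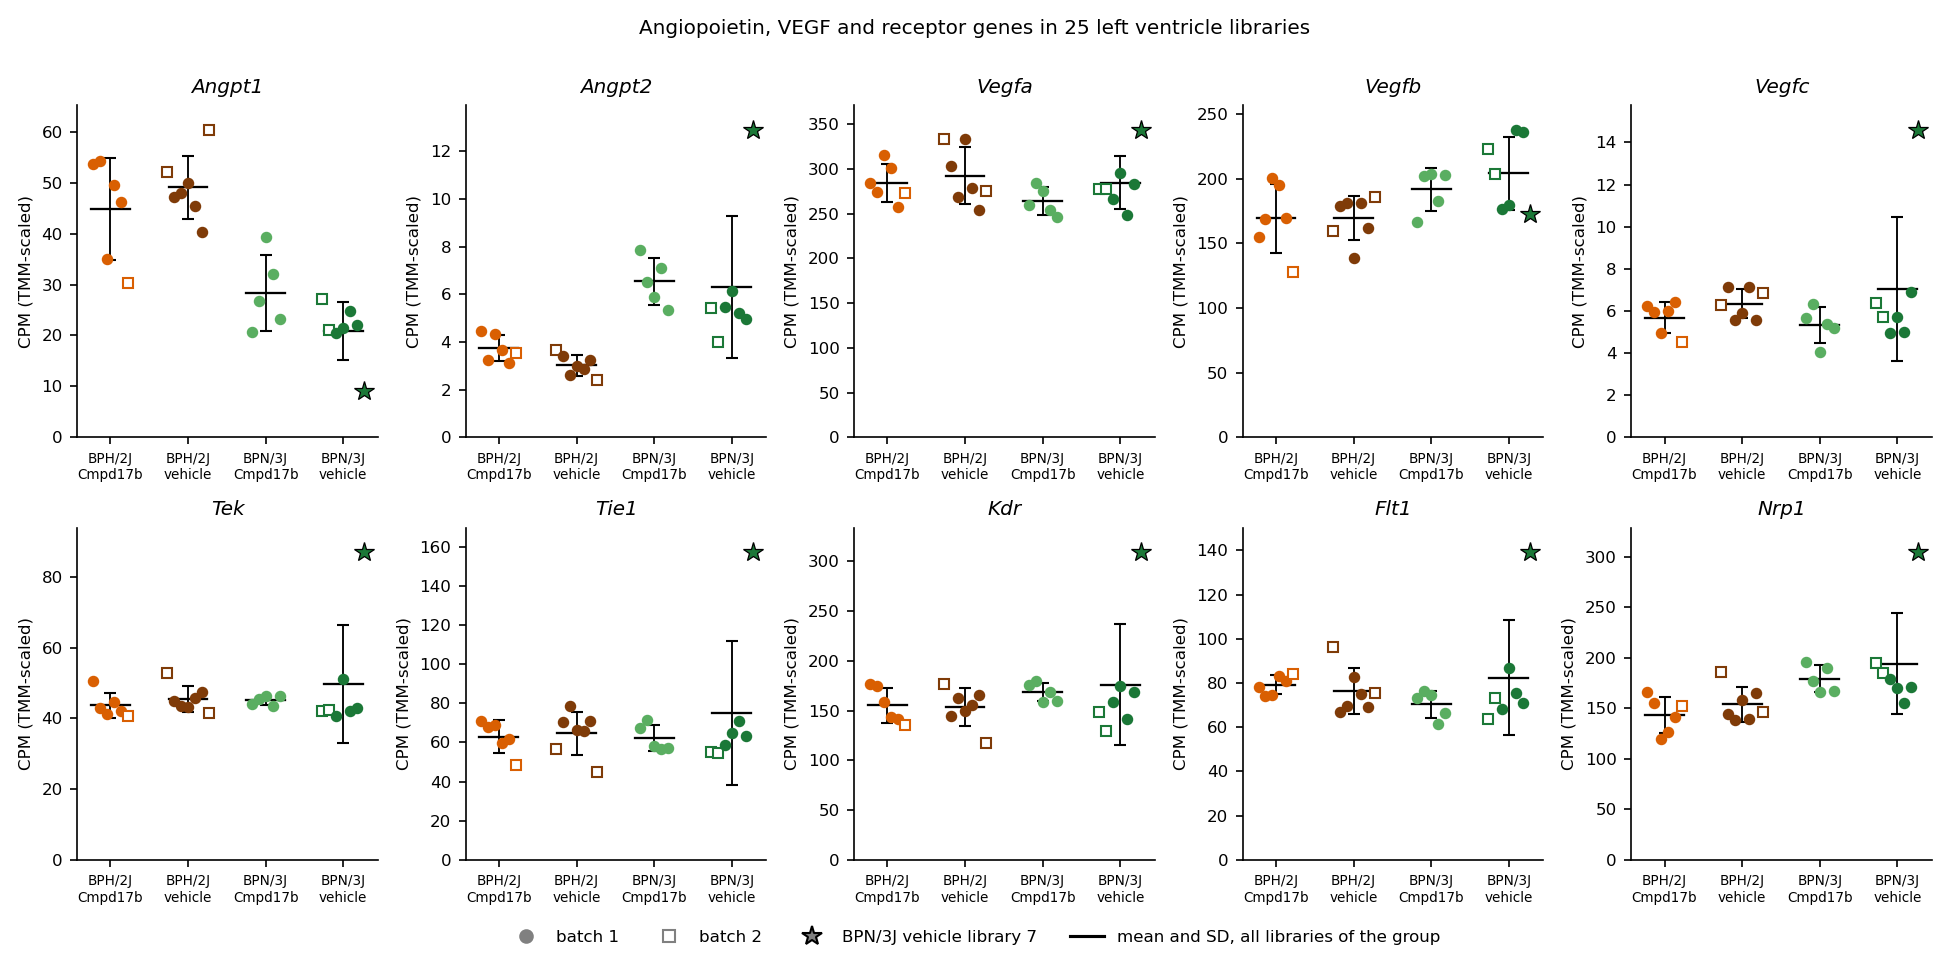
CPM of the 10 genes by library (vertical axis, CPM after TMM scaling) in BPH/2J Cmpd17b, BPH/2J vehicle, BPN/3J Cmpd17b and BPN/3J vehicle hearts, with the mean and SD of each group; filled circles are batch 1, open squares batch 2 and the star BPN/3J vehicle library 7. Angpt1 lay between 40.4 and 60.4 CPM in BPH/2J vehicle libraries, above every BPN/3J vehicle library, Angpt2 lay the other way round, and the star tops 8 of the 10 panels.

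Per kilobase of transcript, Vegfb and Vegfa were the most abundant of the 10 genes and Vegfc and Angpt2 the least. In BPH/2J vehicle hearts Vegfb averaged 132 ± 13.1 CPM per kilobase (SD, n = 7), Vegfa 83.1 ± 9.03, Nrp1 42.8 ± 4.85 and Kdr 25.9 ± 3.21, and the libraries of neighbouring genes in this order did not overlap down to Tie1, at 14.2 ± 2.42. Tie1, Angpt1 at 11.5 ± 1.46 and Tek at 9.70 ± 0.783 CPM per kilobase overlapped with their neighbours. Below them came Flt1 at 6.97 ± 0.939, Vegfc at 2.59 ± 0.283 and Angpt2 at 0.848 ± 0.127, each clear of the next. In BPH/2J Cmpd17b hearts the order was the same. In BPN/3J hearts Angpt1 stood lower in it, below Tek, with 6.66 ± 1.76 CPM per kilobase under Cmpd17b (n = 5) and 4.90 ± 1.35 under vehicle (n = 7), and it overlapped Flt1 in both groups. Counts behind the rarest gene, Angpt2, ran between 71 and 416 per library, against 7325 to 13062 for Vegfa.

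The clearest strain difference of the axis was in the 2 angiopoietins, which went opposite ways. Angpt1 was 2.35-fold higher and Angpt2 0.481-fold as high in BPH/2J as in BPN/3J hearts under vehicle, and their groups did not overlap. Vegfb and Nrp1 were modestly lower in BPH/2J hearts, while Vegfa, Vegfc, Tek, Tie1, Kdr and Flt1 did not pass the test. In all, 4 of the 10 genes were called, 1 higher and 3 lower, against 18.9% of all genes tested (9.16% higher and 9.73% lower). With BPN/3J vehicle library 7 left out there were 3 called, against 24.2% of all genes. The groups did not overlap for 2 of the 10 genes, against 6.37% of all genes, and for the same 2 without that library, against 9.14%.

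Angpt1 had a lowest value of 40.4 CPM, a median of 48 and a highest of 60.4 in BPH/2J vehicle libraries, against 9, 21.4 and 27.2 in BPN/3J vehicle libraries. All 7 BPH/2J libraries were above all 7 BPN/3J libraries, and the low end of the BPN/3J group was library 7, the next lowest being at 20.5 CPM. The log2 difference was 1.23 ± 0.18 (SE), with a 95% interval of 0.86 to 1.60 and an adjusted p of 9.72e-06 in edgeR. It was 1.1 ± 0.15 without BPN/3J vehicle library 7, at an adjusted p of 6.95e-06. Within batch 1 the difference was 1.24 (adjusted p 0.000109 in edgeR) and within batch 2, with 2 libraries of each group, 1.22 (adjusted p 0.000923).

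Angpt2 had a lowest value of 2.38 CPM, a median of 2.97 and a highest of 3.67 in BPH/2J vehicle libraries, against 3.99, 5.41 and 12.9 in BPN/3J vehicle libraries. The BPH/2J libraries were all below the BPN/3J libraries, of which library 7 held the highest value and the next held 6.12 CPM. Its log2 difference was -1.06 ± 0.18, with a 95% interval of -1.43 to -0.68 and an adjusted p of 7.72e-05 in edgeR. The difference was -0.79 ± 0.12 without BPN/3J vehicle library 7, where the adjusted p was 1.02e-05. It was -1.21 within batch 1 (adjusted p 0.000223 in edgeR) and -0.63 within batch 2, where it was not called (adjusted p 0.261).

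Because Angpt2 is largely an endothelial transcript, its level was also set against the endothelial markers. Of those 20 markers none was called higher and 4 lower in BPH/2J vehicle hearts, namely Eng, Gpihbp1, Icam2 and Robo4, against 18.9% of all genes called (9.73% lower; 24.2% called without BPN/3J vehicle library 7), with a median log2 difference of -0.31 over the list against -0.00076 over all genes. Without BPN/3J vehicle library 7 the same 4 were called, and the list's median was -0.09. Per 100 CPM of the endothelial sum, Angpt2 lay between 0.268 and 0.429 in BPH/2J vehicle libraries and between 0.492 and 0.674 in BPN/3J vehicle libraries, so the groups remained apart on that scale. In bulk tissue, fewer cells of a type and less RNA per cell cannot be told apart.

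Angpt1 was likewise read beside the cells known to make it. The 13 mural markers, of pericytes and smooth muscle, summed to 889 to 1230 CPM in BPH/2J vehicle libraries and 903 to 1410 CPM in BPN/3J vehicle libraries. Of them 0 were called higher and 3 lower, namely Kcnj8, Ndufa4l2 and Vtn, against 18.9% of all genes called (9.16% higher and 9.73% lower). Without BPN/3J vehicle library 7 there were 2 higher and 2 lower, against 24.2% of all genes called. The 9 cardiomyocyte markers summed to 57700 to 71800 CPM in BPH/2J vehicle libraries and 60300 to 77400 CPM in BPN/3J vehicle libraries. Of these 0 were called higher and 1 lower, Tnnt2, with and without library 7, against the same shares of all genes. Both sums overlapped between the strains. In the mural sum, with a median of 1120 CPM over the 25 libraries, Rgs5 alone had a median of 510 CPM and Abcc9 of 251 CPM. The part of these cells in the Angpt1 difference was not tested.

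**Figure D2:**
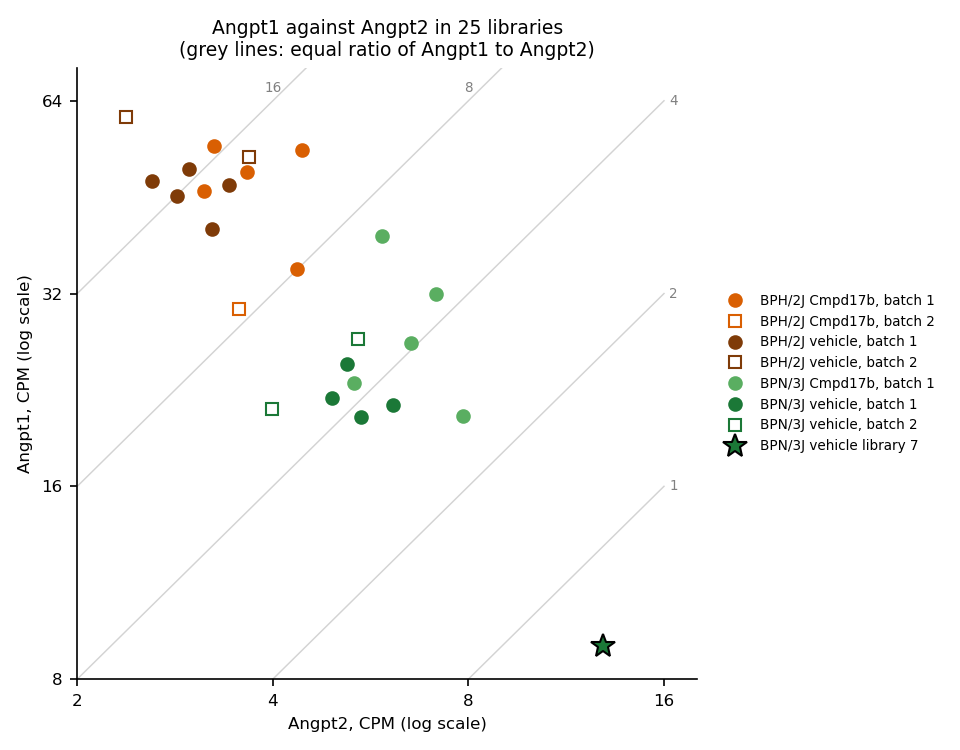
Angpt1 (vertical axis, CPM, log scale) against Angpt2 (horizontal axis, CPM, log scale) in the 25 libraries, coloured by group; grey lines join equal ratios. BPH/2J libraries, with 8.07 to 25.4 times as many CPM of Angpt1 as of Angpt2, lie up and left of BPN/3J libraries, with 0.697 to 6.68 times. The star is BPN/3J vehicle library 7.

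Seen as a ratio within each library, Angpt1 exceeded Angpt2 by more in every BPH/2J library than in any BPN/3J library. The ratio of their CPM was 12.1, 16.7, 8.07, 13.6, 14.8 and 8.52 in BPH/2J Cmpd17b libraries, against 2.62, 4.11, 6.68, 4.5 and 4.35 in BPN/3J Cmpd17b libraries. Under vehicle its lowest, median and highest values were 12.5, 15.9 and 25.4 in BPH/2J libraries, against 0.697, 4.45 and 5.30 in BPN/3J libraries. The 0.697 was library 7, the sole library in which Angpt2 was above Angpt1, and without it the lowest was 3.50. These ratios of CPM are not scaled to gene length. They describe 2 genes already tested one by one and carry no test of their own.

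Nrp1 and Vegfb showed smaller strain differences whose call depended on single libraries. Nrp1 had a lowest value of 138 CPM, a median of 146 and a highest of 186 in BPH/2J vehicle libraries, against 155, 179 and 304 in BPN/3J vehicle libraries. The groups overlapped, and the BPN/3J library nearest to library 7 was at 195 CPM. Its log2 difference was -0.35 ± 0.12, at an adjusted p of 0.0346 in edgeR, and -0.19 ± 0.07 without BPN/3J vehicle library 7, at 0.0572. The call was also lost without BPH/2J vehicle library 2, 3, 5 or 7, at adjusted p of 0.0634, 0.0728, 0.0711 and 0.0667, and within batch 1, where the difference was -0.41 (adjusted p 0.0552 in edgeR), and batch 2, where it was -0.19 (0.56).

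Vegfb, a ligand of VEGFR1 that heart muscle expresses strongly, had a lowest value of 139 CPM, a median of 179 and a highest of 186 in BPH/2J vehicle libraries, against 173, 204 and 238 in BPN/3J vehicle libraries. Here 4 BPN/3J libraries were above every BPH/2J library and library 7 was the lowest of its group. The log2 difference was -0.28 ± 0.10, at an adjusted p of 0.0477 in edgeR, close to the threshold, and -0.31 ± 0.09 without BPN/3J vehicle library 7, at 0.0106. It was no longer called without any 1 of BPH/2J vehicle libraries 1, 2, 3, 4, 5 and 6 or BPN/3J vehicle libraries 1, 2, 5 and 6, where the largest adjusted p was 0.114. Within batch 1 it was -0.26 (adjusted p 0.111 in edgeR) and within batch 2 -0.30 (0.263).

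None of the other ligands and receptors was called between the strains under vehicle, with or without BPN/3J vehicle library 7. Vegfa lay between 254 and 334 CPM in BPH/2J libraries and between 249 and 344 CPM in BPN/3J libraries, and its log2 difference of 0.03 had a 95% interval of -0.13 to 0.20 (0.09, with -0.05 to 0.23, without library 7). Vegfc lay between 5.56 and 7.14 CPM in BPH/2J libraries and between 4.95 and 14.6 CPM in BPN/3J libraries. The 4 receptor kinases each had 1 BPN/3J library, library 7, above all BPH/2J libraries: Tek reached 52.7 CPM in BPH/2J libraries against 86.9 in BPN/3J libraries, and Kdr 177 against 309. Log2 differences were -0.13 for Tek, -0.21 for Tie1, -0.15 for Vegfc, -0.19 for Kdr and -0.12 for Flt1, none called, with adjusted p between 0.325 and 0.615 in edgeR. Without BPN/3J vehicle library 7 they were 0.06 for Tek, 0.05 for Tie1, 0.13 for Vegfc, -0.01 for Kdr and 0.06 for Flt1, again uncalled. The 95% intervals without that library were then -0.07 to 0.19 for Tek, -0.09 to 0.20 for Tie1, -0.10 to 0.36 for Vegfc, -0.17 to 0.14 for Kdr and -0.10 to 0.22 for Flt1. With all 25 libraries the intervals were wider, at -0.38 to 0.12 for Tek, -0.52 to 0.10 for Tie1 and -0.52 to 0.21 for Vegfc. For Kdr the interval was -0.46 to 0.07 and for Flt1 -0.38 to 0.14 with all 25.

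Under Cmpd17b the strains again differed in both angiopoietins, Angpt1 being 1.57-fold higher and Angpt2 0.587-fold as high in BPH/2J as in BPN/3J hearts. These 2 of the 10 genes were called, 1 in each direction, against 14.1% of all genes tested (7.48% higher and 6.65% lower). Without BPN/3J vehicle library 7, which is in neither of these groups but enters the shared estimate of spread, 3 were called, against 20.1%. The groups did not overlap for 2 genes, Angpt2 and Nrp1, against 12.6% of all genes.

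Angpt1 was at 30.3 CPM at its lowest, 47.9 at its median and 54.3 at its highest in BPH/2J Cmpd17b libraries, against 20.6, 26.8, 39.3, 32 and 23.2 CPM in the BPN/3J Cmpd17b libraries. The groups overlapped, with 4 of 6 BPH/2J libraries above every BPN/3J library, and the lowest BPH/2J value was that of the group's 1 batch 2 library. Its log2 difference was 0.65 ± 0.20, with a 95% interval of 0.23 to 1.06 and an adjusted p of 0.0307 in edgeR. Within batch 1 it was 0.74 (adjusted p 0.0131 in edgeR), and without BPN/3J vehicle library 7 it was 0.65 ± 0.16 (0.00539). The call did not survive leaving out any 1 of BPH/2J Cmpd17b libraries 1, 2, 4 and 5 or BPN/3J Cmpd17b libraries 1, 2 and 5, with adjusted p between 0.0514 and 0.0927.

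Angpt2 was at 3.13 CPM at its lowest, 3.60 at its median and 4.44 at its highest in BPH/2J Cmpd17b libraries, against 7.86, 6.52, 5.89, 7.12 and 5.33 CPM in the BPN/3J Cmpd17b libraries. Every BPN/3J library was above every BPH/2J library. The log2 difference was -0.77 ± 0.21, with a 95% interval of -1.19 to -0.35 and an adjusted p of 0.00942 in edgeR, and -0.79 ± 0.13 without BPN/3J vehicle library 7, at 3.3e-05. It was -0.80 within batch 1 (adjusted p 0.0115 in edgeR). Batch 2 holds no BPN/3J Cmpd17b library and gives no value. Of the 20 endothelial markers 0 were called in this comparison with all 25 libraries and 2 were called higher, Cd34 and Emcn, without BPN/3J vehicle library 7, and with 25 libraries their median log2 difference was 0.0062 against 0.0094 over all genes. Per 100 CPM of the endothelial sum, Angpt2 lay between 0.341 and 0.485 in BPH/2J Cmpd17b libraries and between 0.602 and 0.806 in BPN/3J Cmpd17b libraries.

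Nrp1 was at 120 CPM at its lowest, 147 at its median and 166 at its highest in BPH/2J Cmpd17b libraries, against 196, 177, 166, 190 and 167 CPM in the BPN/3J Cmpd17b libraries. All 5 BPN/3J libraries were above the 6 BPH/2J libraries, though by little at the boundary. With all 25 libraries its log2 difference of -0.33 ± 0.13 was not called (adjusted p 0.0973 in edgeR), whereas without BPN/3J vehicle library 7 the difference was -0.35 ± 0.08 and was called (0.00161). It was also called with limma voom and sample quality weights (adjusted p 0.00243) and with the Cmpd17b groups fitted alone in edgeR (0.0065). Vegfb, at 128 to 201 CPM in BPH/2J Cmpd17b libraries and 167 to 204 CPM in BPN/3J Cmpd17b libraries, had a log2 difference of -0.17 with a 95% interval of -0.40 to 0.06 (-0.37 to 0.03 without BPN/3J vehicle library 7). The remaining 6 genes had log2 differences between -0.08, for Kdr, and 0.17, for Flt1, and were not called; without that library these 2 were at -0.10 and 0.15 and all 6 stayed uncalled.

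**Figure D3:**
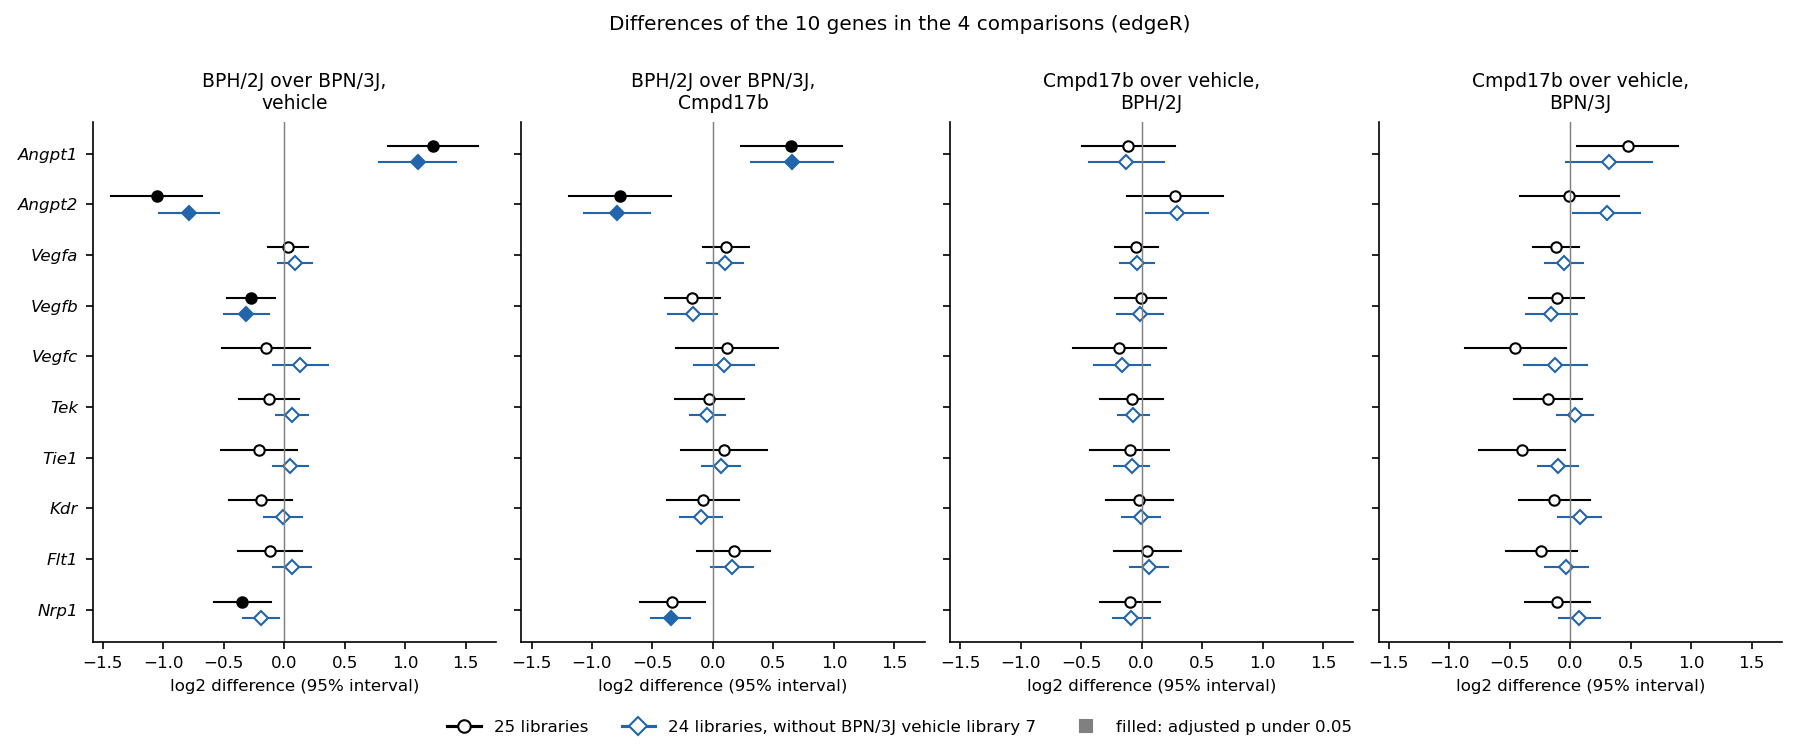
Log2 difference of each of the 10 genes (horizontal axis, with its 95% interval) in the comparisons of BPH/2J with BPN/3J under vehicle and under Cmpd17b and of Cmpd17b with vehicle in each strain, for 25 libraries (circles) and without BPN/3J vehicle library 7 (diamonds); filled symbols were called. Angpt1 at 1.23 and Angpt2 at -1.06 under vehicle are farthest from 0, and no symbol is filled in the Cmpd17b comparisons.

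Cmpd17b treatment itself gave no call on the axis in either strain. In BPH/2J hearts 0 of the 10 genes were called, against 0% of all genes tested; edgeR found 287 genes (1.85%) at an unadjusted p under 0.05, and DESeq2 and limma voom called 0. The groups overlapped for all 10, and for all but 0.0708% of all genes. In BPN/3J hearts 0 of 10 were called, against 0%, with 1506 genes (9.69%) at an unadjusted p under 0.05 in edgeR; limma voom called 0 and DESeq2 called 1 gene, Nrgn, none of the 10. Here too the groups overlapped for all 10, and for all but 0.309% of all genes. The test of whether the Cmpd17b difference itself differed between strains also gave 0 of 10 and 0% in edgeR, with 595 genes (3.83%) at an unadjusted p under 0.05 and 0 calls by DESeq2 or limma voom.

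In BPH/2J hearts the log2 differences of Cmpd17b over vehicle lay between -0.18, for Vegfc, and 0.28, for Angpt2, and every adjusted p was 1 in edgeR. Those 2 were -0.16 and 0.29 in the fit without BPN/3J vehicle library 7, where every adjusted p was again 1. Angpt2 was at 3.13 to 4.44 CPM in BPH/2J Cmpd17b libraries and 2.38 to 3.67 CPM in BPH/2J vehicle libraries, with a 95% interval of the log2 difference of -0.12 to 0.68, and of 0.04 to 0.55 without that library, where the difference was not called (unadjusted p 0.0259, adjusted p 1 in edgeR). Angpt1 was at 30.3 to 54.3 CPM in BPH/2J Cmpd17b libraries and 40.4 to 60.4 CPM in BPH/2J vehicle libraries, with a log2 difference of -0.11 and an interval of -0.49 to 0.27, and of -0.44 to 0.19 without that library. For both genes the groups overlapped. For Vegfa, at 258 to 316 CPM in BPH/2J Cmpd17b libraries and 254 to 334 CPM in BPH/2J vehicle libraries, the interval was -0.22 to 0.13, and -0.18 to 0.10 without that library.

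In BPN/3J hearts 3 of the 10 genes had an unadjusted p under 0.05 for Cmpd17b over vehicle, namely Angpt1, Tie1 and Vegfc, against 9.69% of all genes, and none was called. Angpt1 was at 20.6 to 39.3 CPM in BPN/3J Cmpd17b libraries and 9 to 27.2 CPM in BPN/3J vehicle libraries, 2 of the 5 treated libraries being above every vehicle library. Its log2 difference was 0.47 ± 0.20 (adjusted p 0.514 in edgeR), and 0.32 ± 0.17 without BPN/3J vehicle library 7 (0.849). Tie1 had a log2 difference of -0.40 ± 0.17 and Vegfc of -0.45 ± 0.20 (adjusted p 0.514 for each in edgeR), and without library 7 these were -0.10 ± 0.08 and -0.12 ± 0.13. The unadjusted p in edgeR was then 0.0738 for Angpt1, 0.22 for Tie1 and 0.334 for Vegfc. The 20 endothelial markers had a median log2 difference of -0.35 with library 7 and -0.07 without it in the same comparison, and 0 of them were called. For Angpt2 the difference was -0.01 ± 0.20 with library 7 and 0.30 ± 0.14 without it, again uncalled (adjusted p 0.837 in edgeR). Without library 7, Angpt2 alone among the 10 genes had an unadjusted p under 0.05 in edgeR, at 0.0335. Each Cmpd17b comparison shares its vehicle libraries with the strain comparison under vehicle. For Angpt1 the Cmpd17b difference in BPH/2J minus that in BPN/3J was -0.58 ± 0.27 (adjusted p 0.917 in edgeR), and -0.45 ± 0.22 without BPN/3J vehicle library 7 (1).

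**Figure D4:**
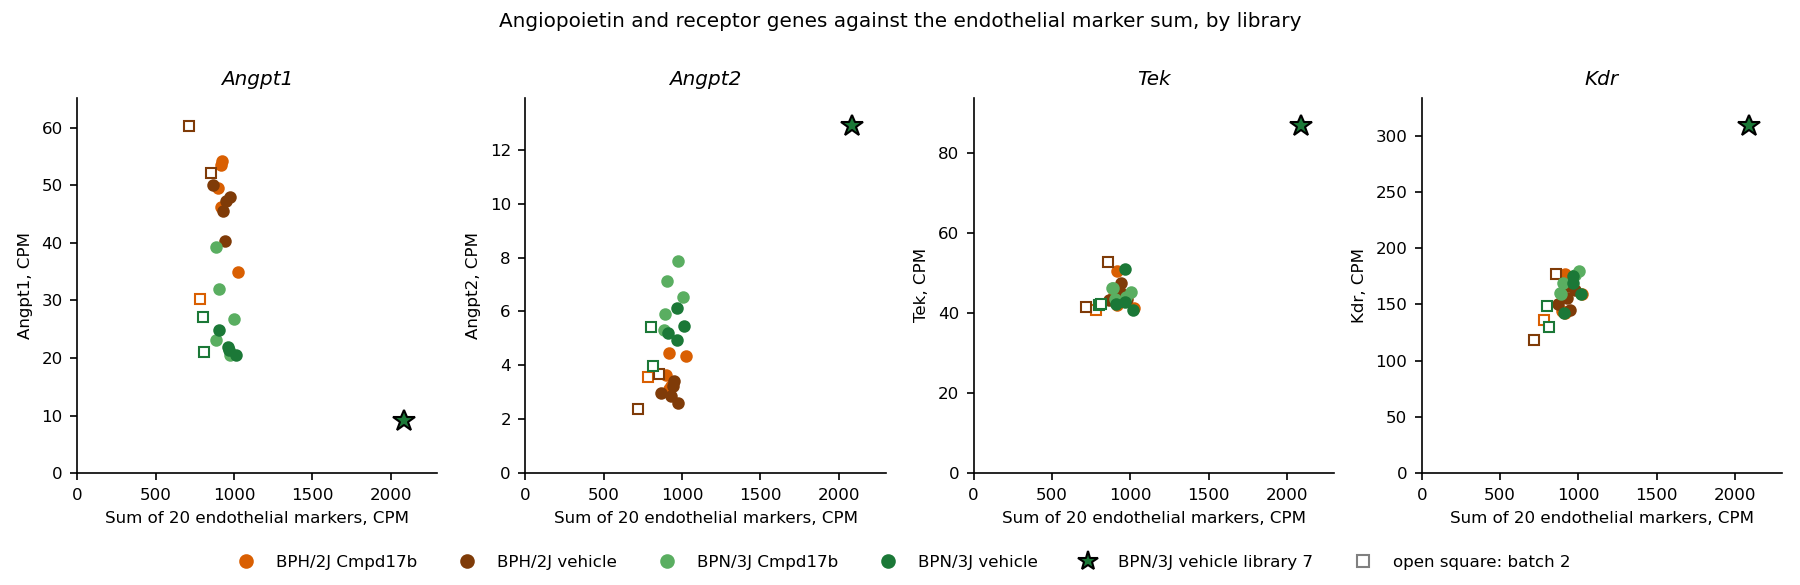
Angpt1, Angpt2, Tek and Kdr (vertical axes, CPM) against the summed CPM of 20 endothelial markers (horizontal axis) in the 25 libraries, coloured by group, with open squares for batch 2. BPN/3J vehicle library 7, the star, stands at 2088 CPM of the marker sum and at 86.9 CPM of Tek and 309 CPM of Kdr, with the other 24 libraries between 716 and 1024 CPM of the sum.

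BPN/3J vehicle library 7 was looked at more closely because it touches most of these genes. Tek at 86.9, Tie1 at 157, Kdr at 309 and Flt1 at 139 CPM were each far above the next library of their group, at 51.0, 71.1, 175 and 86.9 CPM. Set per 100 CPM of the endothelial sum, Tek was at 4.16 there against 4.01 to 5.28 in the other BPN/3J vehicle libraries, Tie1 at 7.52 against 5.76 to 7.83, and Angpt2 at 0.618 against 0.492 to 0.674. On that scale these 3 genes and Vegfc, at 0.698 against 0.487 to 0.796, were within the range of the group. Flt1, at 6.66 against 6.72 to 9, Kdr, at 14.8 against 15.6 to 18.6, and Nrp1, at 14.6 against 17.1 to 24.3, were somewhat below it. Vegfa, at 16.5 against 26.3 to 34.7, Vegfb, at 8.28 against 17.5 to 27.8, and Angpt1, at 0.431 against 2.02 to 3.38, were far below it. The plot of 4 of these genes against the marker sum shows the same library alone at the right.

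The covariation of the 10 genes within groups rested largely on that library. After group means and batch were removed, the 6 pairs among Tek, Tie1, Kdr and Flt1 had Pearson r between 0.736 and 0.891 over the 25 libraries, with a median of 0.85. Over the 24 libraries without BPN/3J vehicle library 7 their r ran between 0.0636, for Tie1 with Flt1, and 0.648, for Tek with Kdr, with a median of 0.398. Angpt1 was opposed to Angpt2 at r = -0.635 over 25 libraries and -0.168 over 24. Over all 45 pairs the median was 0.633 with the library and 0.156 without it. The points of each pair share their library, its depth and its scaling, so these are descriptions.

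Among all genes tested, those whose pattern within groups was most like each axis gene over the 25 libraries were named by a fixed rule of up to 3 a gene, by the r of log2 CPM. Angpt1 was most like Kcnj3 (0.9), Gpr22 (0.899) and A130010J15Rik (0.874), and of these Gpr22 and Kcnj3 were still its nearest without BPN/3J vehicle library 7, at 0.79 each over 24 libraries. Angpt2 was most like Gsap (0.868), Firre (0.864) and Mall (0.86), and over 24 libraries Gsap led again at 0.774. Vegfb was most like Fastk (0.89), Hmga1b (0.88) and Cdc34 (0.843), the first pair being at 0.889 and 0.887 over 24 libraries. Vegfa was most like Appl2 (0.808), Adat1 (0.783) and Adgre5 (0.773), and Vegfc most like Tspan7 (0.874), C1qtnf9 (0.853) and Tspan13 (0.843), none of which was among the 3 nearest over 24 libraries. Among the receptors, Tek was most like Cyyr1 (0.928), Cyp2d22 (0.916) and Arhgap29 (0.916), and Tie1 most like Kank3 (0.96), Slc28a2 (0.946) and Arhgef15 (0.946). Kdr was most like Cdh5 (0.935), Ets1 (0.924) and Ehd2 (0.922), Flt1 most like Podxl (0.922) and Cxcl12 (0.919), and Nrp1 most like Kdr (0.88), Uevld (0.875) and Gimap8 (0.872). Of the receptors' nearest genes Kank3 alone, at 0.798 with Tie1, was again among the 3 nearest over 24 libraries.

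Other genes of the 2 pathways were read as 4 lists, whose counts stand against 18.9% of all genes called under vehicle and 14.1% under Cmpd17b (24.2% and 20.1% without BPN/3J vehicle library 7). Of 11 angiopoietin and TIE partners tested, 1 was called higher under vehicle: Adam17, a metalloprotease that sheds cell surface proteins, averaged 32.9 ± 2.18 CPM in BPH/2J vehicle hearts and 26.9 ± 3.95 CPM in BPN/3J vehicle hearts (SD, n = 7 each; log2 difference 0.30, adjusted p 0.00176 in edgeR). Under Cmpd17b the 1 called was Svep1, a matrix protein known to bind TIE1, which averaged 11.3 ± 4.82 CPM in BPH/2J Cmpd17b hearts (n = 6) and 6.5 ± 0.918 CPM in BPN/3J Cmpd17b hearts (n = 5), a log2 difference of 0.76 (adjusted p 0.00678 in edgeR). The list's median log2 difference was 0.03 under vehicle and 0.02 under Cmpd17b, against -0.00076 and 0.0094 over all genes. Both calls held without BPN/3J vehicle library 7, at adjusted p of 0.00188 and 0.00587.

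Of 15 genes of the VEGF family, its co-receptors and adaptors, 1 was called higher under vehicle and 1 higher under Cmpd17b. Sema3a, a semaphorin that binds neuropilin-1, averaged 1.88 ± 0.682 CPM in BPH/2J vehicle hearts and 1.1 ± 0.519 CPM in BPN/3J vehicle hearts (adjusted p 0.0404 in edgeR), a call lost without BPN/3J vehicle library 7. Gipc1, an adaptor that binds the tail of neuropilin-1, averaged 25.9 ± 1.88 CPM in BPH/2J Cmpd17b hearts and 21.5 ± 1.53 CPM in BPN/3J Cmpd17b hearts (adjusted p 0.00582 in edgeR). Without that library 2 genes were called higher under vehicle, Sema3f and Sema3d, and 4 under Cmpd17b, Sema3f, Gipc1, Shb and Flt4. Sema3f, a ligand of neuropilin-2, then averaged 19.3 ± 2.52 CPM in BPH/2J vehicle hearts (n = 7) and 14.9 ± 1.96 CPM in BPN/3J vehicle hearts (n = 6). The median log2 difference of the list was 0.00043 under vehicle and 0.14 under Cmpd17b.

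Of 15 genes known as endothelial responses to VEGF, Igfbp3 was called higher in BPH/2J hearts under both treatments. It averaged 30.4 ± 5.38 CPM in BPH/2J Cmpd17b hearts and 17.7 ± 2.27 CPM in BPN/3J Cmpd17b hearts (log2 difference 0.77, adjusted p 0.000575 in edgeR). Under vehicle it averaged 29.6 ± 5.20 CPM in BPH/2J hearts and 21.7 ± 5.22 CPM in BPN/3J hearts (log2 difference 0.44, adjusted p 0.0201 in edgeR). Esm1, a proteoglycan of sprouting endothelium, was also called under Cmpd17b, at 2.74 ± 0.637 CPM in BPH/2J hearts and 1.44 ± 0.294 CPM in BPN/3J hearts (adjusted p 0.0283 in edgeR). The list's median log2 difference was -0.11 under vehicle and 0.09 under Cmpd17b. All these calls held without BPN/3J vehicle library 7, and the medians were then -0.0027 and 0.07.

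Of 19 genes of the hypoxia response and the control of Vegfa, 1 was called higher and 1 lower under vehicle and 2 higher under Cmpd17b, with medians of -0.02 and -0.04. Egln3, a prolyl hydroxylase that marks hypoxia factors for destruction, averaged 55.3 ± 11.7 CPM in BPH/2J vehicle hearts and 38.0 ± 11.9 CPM in BPN/3J vehicle hearts (adjusted p 0.043 in edgeR). Epas1, which encodes HIF-2α, averaged 180 ± 15 CPM in BPH/2J vehicle hearts and 232 ± 41.7 CPM in BPN/3J vehicle hearts (log2 difference -0.37, adjusted p 0.00377 in edgeR). Hif3a and Ankrd37 were the pair called under Cmpd17b, at 1.45 ± 0.827 and 3.18 ± 0.510 CPM in BPH/2J hearts against 0.550 ± 0.239 and 2.04 ± 0.396 CPM in BPN/3J hearts (adjusted p 0.00655 and 0.026 in edgeR). Without BPN/3J vehicle library 7 this list had 1 higher and 4 lower calls under vehicle, Slc2a1, Ppargc1a and Esrra joining Epas1, and 2 higher and 4 lower under Cmpd17b, where Egln1, Epas1, Esrra and Ppargc1a were lower. Ppargc1a, a coactivator known to induce Vegfa in mouse muscle, averaged 55.1 ± 6.22 CPM in BPH/2J vehicle hearts (n = 7) and 66.8 ± 5.17 CPM in BPN/3J vehicle hearts without that library (n = 6), while Vegfa itself was not called. In the Cmpd17b comparisons of either strain, 0 genes of these 4 lists were called.

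Markers of other cell types that could carry these transcripts were read in the same strain comparisons, against 18.9% of all genes called under vehicle and 14.1% under Cmpd17b. Under vehicle 1 of 5 arterial markers was called higher, Gja5, with 2 of 4 venous and endocardial markers lower, 1 of 6 lymphatic markers higher, and 1 higher and 1 lower of 9 fibroblast markers. Under Cmpd17b 0 of 5 arterial, 1 of 4 venous and endocardial (lower), 1 of 6 lymphatic (higher) and 1 of 9 fibroblast markers (lower) were called, and of 13 mural markers 1 was higher and 2 lower. Macrophage markers had 2 of 6 higher under vehicle and 1 of 6 lower under Cmpd17b. In the repeat without BPN/3J vehicle library 7, the vehicle comparison had 3 fibroblast markers higher and 1 lower, 2 lymphatic and 1 macrophage marker higher, and the Cmpd17b comparison had 1 arterial marker higher and 2 mural markers higher and 2 lower, against 24.2% and 20.1% of all genes called, and the other counts of these sets were as with 25 libraries. Marker sets of atrium, liver and kidney reached 214, 464 and 156 CPM in sum, in the BPH/2J vehicle, BPN/3J vehicle and BPN/3J Cmpd17b groups in turn. The kidney sum had a median of 34.2 CPM over the 25 libraries. For liver the median was 7.93 CPM in BPN/3J vehicle libraries (31 without library 7), against a highest of 3.19 CPM in BPH/2J vehicle libraries. All 3 liver markers were called lower in BPH/2J vehicle hearts. The 1 atrial marker tested, Myl4, was called higher there, with a log2 difference of 2.39 (2.44 without BPN/3J vehicle library 7). The median of the atrial sum was 4.57 CPM in BPH/2J vehicle libraries, far below their highest of 214 CPM. In BPN/3J vehicle libraries its median was 1.62 CPM and its highest 6.84 CPM. The part of these markers in the differences of the axis genes was not tested.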

How the data were processed

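Left ventricle libraries of polyadenylated RNA were read from 1 table of expected counts per gene that the authors deposited, with 26 libraries and 40413 genes; whole numbers made up 93.3% of the values, and 2.21% differed from the nearest one by over 0.01. The submitters' processing notes name Trim Galore 0.6.7, STAR 2.7.9a and GRCm39 (mm39), per the labels, with no order or role. Not stated there are the counting program and its use of strand: reads of overlapping antisense genes cannot be told apart. Groups and batches came from the labels, and replicate numbers, given in accession order, only name libraries. Library 7 of the BPH/2J Cmpd17b group, with kidney transcripts, was left out. Total counts of the other 25 ran between 25476100 and 48648200, with a median of 34804900.

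Expected counts were rounded, filtered by filterByExpr to 15543 genes, scaled by TMM and fitted in edgeR 4.0.16 (R 4.3.3) by the robust quasi-likelihood test over the 4 groups with batch as a term. Adjusted p-values follow Benjamini and Hochberg over all genes tested, with a threshold of 0.05, and SEs and 95% intervals come from the same fit. Levels per kilobase used the union of exons in the GENCODE M21 annotation. On simulated data with 200 of 15543 genes changed 2-fold, the test recovered 81% of them under the vehicle strain comparison, 74% under the Cmpd17b strain comparison, 80% for Cmpd17b in BPH/2J and 77% for Cmpd17b in BPN/3J. False calls were 3.57%, 7.5%, 3.03% and 7.78% of those made, in the same order. The simulated libraries had no batch effect and none stood apart as BPN/3J vehicle library 7 does. These rates therefore need not hold for the real data, and they say nothing of changes smaller than 2-fold. Alternatives were RLE scaling, DESeq2 1.42.0, limma 3.58.1 voom, other filters, no batch term, each batch alone, all 26 libraries, the compared groups alone and each library left out. Leaving BPN/3J vehicle library 7 out of the comparisons it is not part of, and out of lists, levels and correlations, was chosen after seeing the data.

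The axis genes and all lists were chosen with earlier results of these data known. Named from each pathway list were up to 4 called genes with the smallest p in a comparison, and for each axis gene the 3 genes with the highest Pearson r of log2 CPM (prior count 2) after group means and batch were removed, of which 1 is not reported here; Esrra in the repeat without BPN/3J vehicle library 7 was named after its values were seen. Correlations use log2 CPM.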

Additional observations from a re-analysis of the deposited data

Results flagged for a closer look

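In 40 sets of values, 1 for each of the 10 axis genes in each group, the value farthest from the rest was set against Dixon's limit at the 95% level, which chance passes in about 1 of 20 sets. It was passed 8 times, always by BPN/3J vehicle library 7, so the 8 are 1 event and not 8. Angpt1 was lowest there, at 9 CPM against 20.5 CPM in the next library of the group. The others were highest there: Angpt2 at 12.9 CPM against 6.12, Tek at 86.9 against 51.0, Tie1 at 157 against 71.1, and Vegfc at 14.6 against 6.89. Kdr stood at 309 CPM against 175, Flt1 at 139 against 86.9 and Nrp1 at 304 against 195. The summed endothelial markers of that library, at 2088 CPM, were also the highest of the 25, and their part in these values was not tested.

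The left-out library of the BPH/2J Cmpd17b group, whose kidney transcripts go against its label, held 4.77 CPM of Angpt2, above the highest BPH/2J vehicle library, at 3.73 CPM on the scale of all 26 libraries. It was left out of the report's comparisons and enters only the repeats with all 26 libraries.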

How the results depend on the processing

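Under vehicle, Angpt1 was called in 24 of 24 other settings (log2 difference 1.1 to 1.30) and Angpt2 in 23 of 24 (-1.21 to -0.63, not called within batch 2), whereas Vegfb was called in 8 and Nrp1 in 15. Under Cmpd17b, Angpt2 was called in 21 of 21 (-0.84 to -0.70), Angpt1 in 12, the misses including all 26 libraries (0.50, adjusted p 0.396 in edgeR) and no filter (0.65, 0.079), and Nrp1 in 3. Axis genes called under vehicle numbered 2 with all 26 libraries, where 1492 of 15558 genes were called. They numbered 2 within batch 1, 1 within batch 2 and 2 with the compared groups alone. Under Cmpd17b they numbered 1 with all 26 libraries, beside 1195 of 15558 genes, and 1 without a filter, beside 1989 of 27274. The counts for single batches and the compared groups alone have no share of all genes beside them and are no result about the axis. Leaving out 1 library gave 2 to 4 axis genes under vehicle and 1 to 3 under Cmpd17b, and 2598 to 3751 and 1834 to 3119 genes of all; in the Cmpd17b comparisons and the interaction it gave 0 to 0. All genes called were 2936 under vehicle, against 1492 with all 26 libraries and 1130 within batch 2, and 2197 under Cmpd17b, against 1195 with all 26 libraries and 3392 by limma voom; DESeq2 called 1 for Cmpd17b in BPN/3J, where edgeR called 0. RLE scaling and the 1 CPM filter kept these counts within 1.5 times.

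Signs turned only for differences that were not called, some of them not small, such as the interactions of Angpt2 (0.29) and Vegfc (0.27) and Tie1 (-0.21) and Kdr (-0.19) under vehicle. With all 26 libraries they were Tie1 under Cmpd17b (-0.031), Flt1 for Cmpd17b in BPH/2J (-0.12), Angpt2 for Cmpd17b in BPN/3J (0.016) and, in the interaction, Vegfb (-0.039), Kdr (-0.014) and Nrp1 (-0.094). With limma voom they were, under vehicle, Tek (0.022), Tie1 (0.011), Vegfc (0.088) and Flt1 (0.0062); for Cmpd17b in BPH/2J, Vegfb (0.0039) and Kdr (0.030); for Cmpd17b in BPN/3J, Angpt2 (0.28), Tek (0.016), Kdr (0.047) and Nrp1 (0.067); and in the interaction Tek (-0.057), Kdr (-0.017) and Nrp1 (-0.10). Without a filter Angpt2 turned for Cmpd17b in BPN/3J (0.0016), and without a batch term Vegfb (0.000289) and Kdr (0.016) in BPH/2J and Angpt2 (0.046) in BPN/3J. Batch 1 alone turned Vegfa under vehicle (-0.010) and, for Cmpd17b in BPH/2J, Angpt1 (0.045), Vegfb (0.078) and Kdr (0.027), and batch 2 alone turned Tek (0.16), Vegfc (0.12), Kdr (0.082) and Flt1 (0.33) under vehicle. Leaving out 1 library gave ranges across 0 under vehicle for Flt1 (-0.19 to 0.061), Tek (-0.19 to 0.063), Tie1 (-0.28 to 0.050), Vegfa (-0.010 to 0.087) and Vegfc (-0.23 to 0.13). For Cmpd17b in BPH/2J they were Angpt1 (-0.17 to 0.052), Kdr (-0.052 to 0.061) and Vegfb (-0.059 to 0.089), and in BPN/3J Angpt2 (-0.082 to 0.30), Kdr (-0.19 to 0.079), Nrp1 (-0.16 to 0.075) and Tek (-0.24 to 0.040). In the interaction they were Angpt2 (-0.0069 to 0.41), Kdr (-0.086 to 0.22), Nrp1 (-0.16 to 0.075), Tek (-0.11 to 0.18) and Vegfc (-0.037 to 0.35). The cause was not tested. No paired analysis was made because the labels link no library of 1 group to a library of another, and the replicate numbers used here only name libraries. Angpt2 and Vegfc had the fewest counts, 71 to 416 and 133 to 470 a library.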
